A study of Mus musculus with 16 samples.

Results

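The genes described here are 8 receptors and ligands of the tumour necrosis factor (TNF) superfamily, taken by name from 3 signalling axes out of 49568 genes in the count table. The TWEAK axis is the ligand TWEAK (gene Tnfsf12) and its receptor Fn14 (Tnfrsf12a). The RANK axis is the ligand RANKL (Tnfsf11), its receptor RANK (Tnfrsf11a) and the soluble decoy osteoprotegerin (Tnfrsf11b). The TNF axis is the ligand Tnf and its receptors Tnfr1 (Tnfrsf1a) and Tnfr2 (Tnfrsf1b).

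Bulk RNA-seq was made from deep digital flexor tendon of the hind paw, taken at the site of injury, in 2 mouse strains, C57BL/6J (C57), which heals tendon with scar, and MRL/MpJ (MRL), a strain known for its scarless healing in some tissues. The 4 groups held 4 libraries each: uninjured C57, C57 at 7 days post-injury (7 dpi), uninjured MRL and MRL at 7 dpi. All mice were males of 9 to 11 weeks. The injury was a cut through 50% of the tendon's width in digit 3, and each library came from 1 tendon. No group carried an engineered allele. By the study's methods the sheath and the tissue around the tendon were left on, so libraries can hold cells of neighbouring tissues. Injured libraries keep the names the submitters gave them. In C57 they are BI-181, BI-183, BI-184, BI-185, and in MRL BI-270, BI-272, BI-274, BI-275. The uninjured libraries are numbered replicates 1 to 4 in each strain.

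Levels are CPM, counts scaled to library sizes adjusted by the TMM method, and a group is given as mean ± SD with n = 4. Total counts ranged from 12552424 to 23741648 per library and were highest in injured MRL, with a median of 23460742.5 against 14560249.5 in injured C57. A gene was called where its Benjamini-Hochberg adjusted p was under 0.05 and its absolute log2 fold change over 1 in edgeR's quasi-likelihood test, fitted on all genes that passed an expression filter. Tendon markers were abundant in every library, with 12 genes summing to between 39440 and 136800 CPM. Some C57 libraries stood apart in markers of other tissues. Epidermal markers summed to 74520 CPM in C57 uninjured replicate 4. Skeletal muscle markers summed to 74200 CPM in BI-181 and 2093 CPM in BI-183, against at most 22.9 CPM in each other library. In these bulk libraries, fewer cells of a type and less RNA per cell cannot be told apart.

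Most TNF superfamily ligands are made as membrane proteins that can be shed, and they act as trimers that gather their receptors on the target cell. The receptors recruit TRAF adaptors or death-domain adaptors, which lead to NF-kB, to MAP kinases or to caspases. TWEAK binding to Fn14 is known from wounded tissue, RANKL binding to RANK drives osteoclast formation until osteoprotegerin captures the ligand, and TNF drives inflammation through Tnfr1, found on most cells, and Tnfr2, enriched on immune cells.

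Promoter sequence from RefSeq on GRCm38.p6, running from 250 bases before to 50 bases after the gene start, was found for 6 of the 8 genes, and not for Tnfsf12 or Tnfrsf11b. The 3 printed here belong to the receptor with the largest change and to the ligands that were at 0 in most or some libraries. They are read 5′ to 3′ on the gene's own strand, the minus strand for all 3, at chr17:23677400-23677699 for Tnfrsf12a, chr17:35201958-35202257 for Tnf and chr14:78307994-78308293 for Tnfsf11. Capitals mark matches to the TATA letters TATAAA on either strand.
Tnfrsf12a: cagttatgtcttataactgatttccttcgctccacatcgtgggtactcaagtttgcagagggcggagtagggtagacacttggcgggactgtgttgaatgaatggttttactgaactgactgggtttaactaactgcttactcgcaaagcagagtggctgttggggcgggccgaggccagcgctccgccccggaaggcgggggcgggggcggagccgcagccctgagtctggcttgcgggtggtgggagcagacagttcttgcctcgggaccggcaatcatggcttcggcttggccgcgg
Tnf: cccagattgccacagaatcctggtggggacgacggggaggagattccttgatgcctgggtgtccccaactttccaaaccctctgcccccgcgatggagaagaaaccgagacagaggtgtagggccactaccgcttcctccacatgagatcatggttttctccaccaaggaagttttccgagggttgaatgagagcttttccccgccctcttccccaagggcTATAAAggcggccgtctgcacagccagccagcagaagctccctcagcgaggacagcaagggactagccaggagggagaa
Tnfsf11: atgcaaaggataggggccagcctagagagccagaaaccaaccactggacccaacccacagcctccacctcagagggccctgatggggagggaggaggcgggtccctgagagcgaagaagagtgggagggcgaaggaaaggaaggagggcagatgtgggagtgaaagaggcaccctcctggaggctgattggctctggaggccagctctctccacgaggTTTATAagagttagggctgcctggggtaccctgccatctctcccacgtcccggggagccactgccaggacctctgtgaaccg
A TATA match stood in both ligand promoters, 29 bases before the gene start of Tnf and 32 before that of Tnfsf11, where it read on the opposite strand. It was absent from all 4 receptor promoters searched, and 13.6% of 32851 mouse promoters of this length hold it. The AP-1 letters TGANTCA and the kappa-B consensus matched none of the 6 promoters on either strand, against 7.81% and 4.51% of all promoters. These are matches of letters in a short window and not sites shown to be bound.

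Tnfrsf12a, the receptor of the TWEAK axis, rose in MRL tendon after injury. The gene lies on chromosome 17 at 23675445 to 23677468, minus strand, in GRCm38. In uninjured MRL replicates 1 to 4 it stood at 21.5, 38.5, 30.3 and 47.2 CPM. In BI-270, BI-272, BI-274, BI-275 it stood at 177, 208, 135 and 339 CPM. Every injured MRL library was above every uninjured one. The mean went from 34.4 ± 11.02 CPM to 215 ± 87.8 CPM, a log2 fold change of 2.65 (SE 0.326, edgeR adjusted p = 0.00172). Without BI-275, the highest library, the log2 fold change was 2.34 (edgeR adjusted p = 0.00177). Summed macrophage markers also separated these MRL groups, at 1006 to 1641 CPM before and 3698 to 6663 CPM after injury. Summed T lymphocyte markers did so too, at 0.199 to 2.39 and 10.51 to 22.9 CPM, though only 2 of these 10 markers passed the filter. In BI-275, Il7r, also found on other cells, made 15.3 CPM of that sum, Cd2 6.02 CPM and Cd3e 0.0557 CPM. The part of either marker list in the Tnfrsf12a values was not tested.

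In C57, Tnfrsf12a did not pass the test. Uninjured C57 replicates 1 to 4 held 57.2, 31.7, 58.2 and 23.1 CPM. BI-181, BI-183, BI-184, BI-185 held 66.3, 90.5, 107 and 55.2 CPM. The groups overlapped, since BI-185 lay below 2 of the uninjured libraries. The means were 42.5 ± 17.8 and 79.8 ± 23.5 CPM, with a log2 difference of 0.86 (95% interval 0.09 to 1.63, edgeR adjusted p = 0.283).

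At 7 dpi, Tnfrsf12a was higher in MRL than in C57, with no overlap between the strains. The log2 fold change was 1.40 (SE 0.304, edgeR adjusted p = 0.0321), and the call was lost when BI-181, BI-183, BI-185 or BI-272 was left out, with edgeR adjusted p up to 0.0977. Summed tendon markers separated the same groups, at 39440 to 76920 CPM in injured C57 and 79490 to 136800 CPM in injured MRL. Endothelial markers did so the other way, at 125 to 230 CPM in injured C57 and 4.88 to 35.5 CPM in injured MRL, and the part of either in the Tnfrsf12a difference was not tested. Before injury the strains overlapped, at a log2 difference of -0.32 (edgeR adjusted p = 0.834). The difference between the strains' responses to injury, tested as an interaction, was 1.74 (SE 0.492, 95% interval 0.69 to 2.78, edgeR adjusted p = 0.333) and did not pass.

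Tnfsf12, the ligand TWEAK, passed no test. It lay between 3.16 and 6.23 CPM in uninjured C57 and between 5.26 and 11.2 CPM in injured C57. It lay between 5.71 and 8.60 CPM in uninjured MRL and between 7.14 and 10.1 CPM in injured MRL. The groups overlapped within both strains, with log2 differences after injury of 0.67 in C57 (edgeR adjusted p = 0.472) and 0.06 in MRL (95% interval -0.65 to 0.77, edgeR adjusted p = 0.924). Tnfsf12 lies on chromosome 11 inside the readthrough gene Tnfsfm13, which held 2 to 12 counts per library, and opposite the antisense gene Tnfsf13os. How reads were shared among these genes is not known, which makes the Tnfsf12 counts uncertain.

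The ratio of Tnfrsf12a to Tnfsf12 counts within each library, with 0.5 added to each count and no scaling for length, separated injured from uninjured MRL. It ranged from 2.51 to 8.22 in uninjured MRL and from 16.9 to 47.3 in injured MRL. In C57 it ranged from 5.07 to 9.96 before and from 5.53 to 20.3 after injury, and these ranges overlapped.

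**Figure D1:**
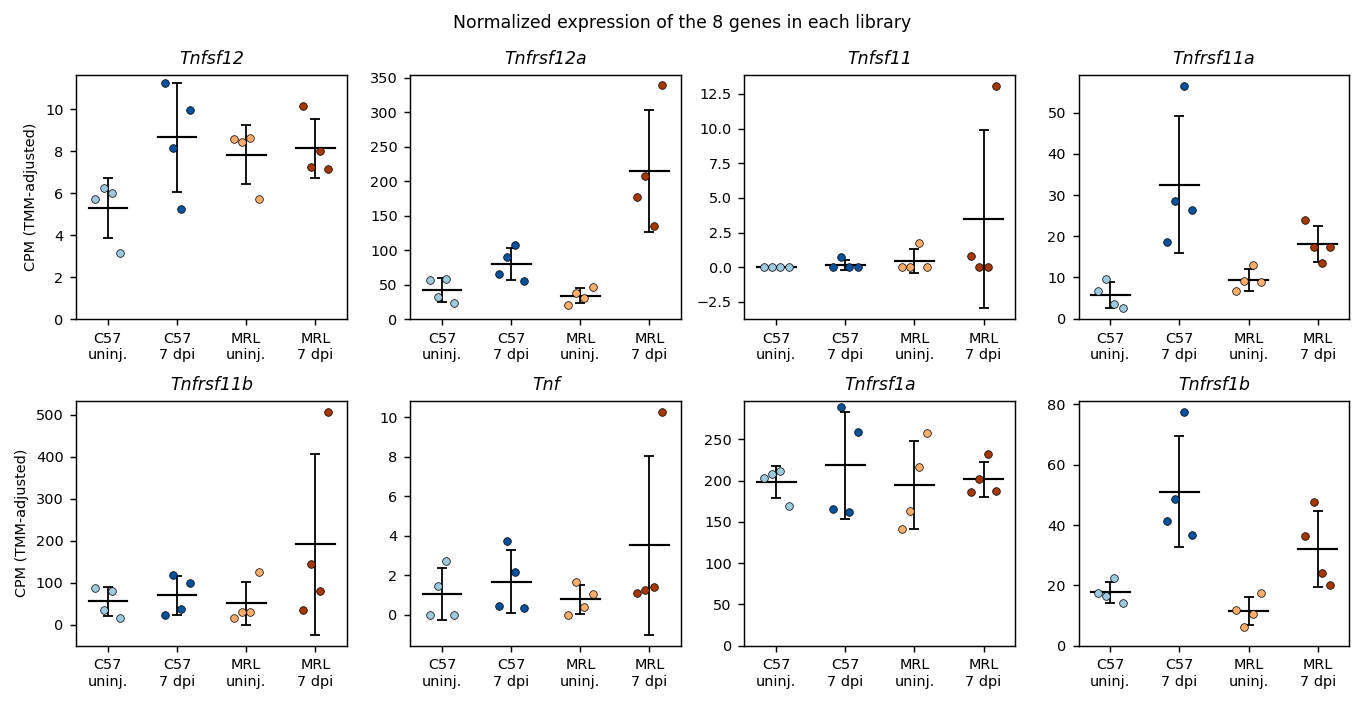
TMM-adjusted CPM (y axis, linear, a scale of its own in each panel) of the 8 genes in each library (points) by group (x axis), with the mean as a line and the SD as a bar, n = 4. The bars reach below 0 where the SD exceeds the mean. Tnfrsf12a in injured MRL, at 135 to 339 CPM, lies above all other libraries, and BI-275 is the highest library for Tnfrsf12a, Tnfsf11, Tnfrsf11b and Tnf.

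Tnfrsf1b, the gene of Tnfr2, rose after injury in both strains. It lies on chromosome 4 at 145213463 to 145246870, minus strand. Uninjured C57 replicates 1 to 4 held 17.4, 16.6, 22.6 and 14.02 CPM, and BI-181, BI-183, BI-184, BI-185 held 41.4, 48.7, 77.6 and 36.7 CPM. Uninjured MRL replicates 1 to 4 held 11.8, 6.21, 10.6 and 17.5 CPM, and BI-270, BI-272, BI-274, BI-275 held 36.5, 47.7, 24.1 and 20.1 CPM. Injured and uninjured libraries did not overlap in either strain. The log2 fold change was 1.49 in C57 (SE 0.279, edgeR adjusted p = 0.047) and 1.48 in MRL (SE 0.362, edgeR adjusted p = 0.0277).

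Both edgeR calls of Tnfrsf1b stood near the threshold, while DESeq2 gave adjusted p = 0.000106 in C57 and 0.00166 in MRL. In C57 the call held without C57 uninjured replicate 4 and was lost without each of the other 7 libraries, with edgeR adjusted p between 0.0226 and 0.143. In MRL it was lost without uninjured replicate 1, 2 or 3, BI-270 or BI-272, with edgeR adjusted p between 0.0204 and 0.0821. The interaction was -0.06 (SE 0.475, 95% interval -1.06 to 0.95, edgeR adjusted p = 0.98), an interval that leaves room for a difference of about 1 log2 unit either way.

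Macrophage markers moved with Tnfrsf1b in both strains, the summed T lymphocyte markers in MRL and the summed endothelial markers in C57. The 12 macrophage markers summed to between 826 and 1793 CPM in uninjured C57 and between 4938 and 8696 CPM in injured C57. In MRL they separated the groups as given for Tnfrsf12a. All 12 macrophage markers had a positive log2 fold change in each strain, and 6 were called in C57 and 7 in MRL. No defining macrophage marker was at 0 in an injured library, and the part of these cells in the Tnfrsf1b and Tnfrsf11a values was not tested. The 8 endothelial markers summed to between 19.8 and 111 CPM in uninjured and 125 and 230 CPM in injured C57, with no overlap, and none was called. In MRL they summed to between 18.3 and 92.7 CPM before and 4.88 and 35.5 CPM after injury, and their part in the Tnfrsf1b values was not tested either.

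Tnfrsf1a, the gene of Tnfr1, overlapped in all groups. It lay between 169 and 212 CPM in uninjured C57, 162 and 289 in injured C57, 141 and 258 in uninjured MRL, and 186 and 232 in injured MRL. The log2 difference after injury was 0.09 in C57 (95% interval -0.42 to 0.61, edgeR adjusted p = 0.893) and 0.06 in MRL (95% interval -0.38 to 0.49, edgeR adjusted p = 0.885). The ratio of Tnfrsf1b to Tnfrsf1a counts went from between 0.0801 and 0.107 to between 0.142 and 0.480 in C57, and from between 0.0383 and 0.0839 to between 0.104 and 0.237 in MRL. The injured and uninjured ranges of this ratio did not overlap in either strain.

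Tnf itself was at the edge of detection. Its counts in uninjured C57 replicates 1 to 4 were 0, 22, 35 and 0, and in BI-181, BI-183, BI-184, BI-185 they were 7, 60, 33 and 5. Its counts in uninjured MRL replicates 1 to 4 were 0, 23, 6 and 13, and in BI-270, BI-272, BI-274, BI-275 they were 26, 27, 32 and 184. The injured libraries overlapped the uninjured ones in both strains, and the log2 difference was 0.63 in C57 (SE 1.48, edgeR adjusted p = 0.89) and 2.20 in MRL (SE 1.19, edgeR adjusted p = 0.257). Without BI-275 the MRL difference was 0.70 (edgeR adjusted p = 0.758). A difference in Tnf was therefore not detectable with these libraries.

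**Figure D2:**
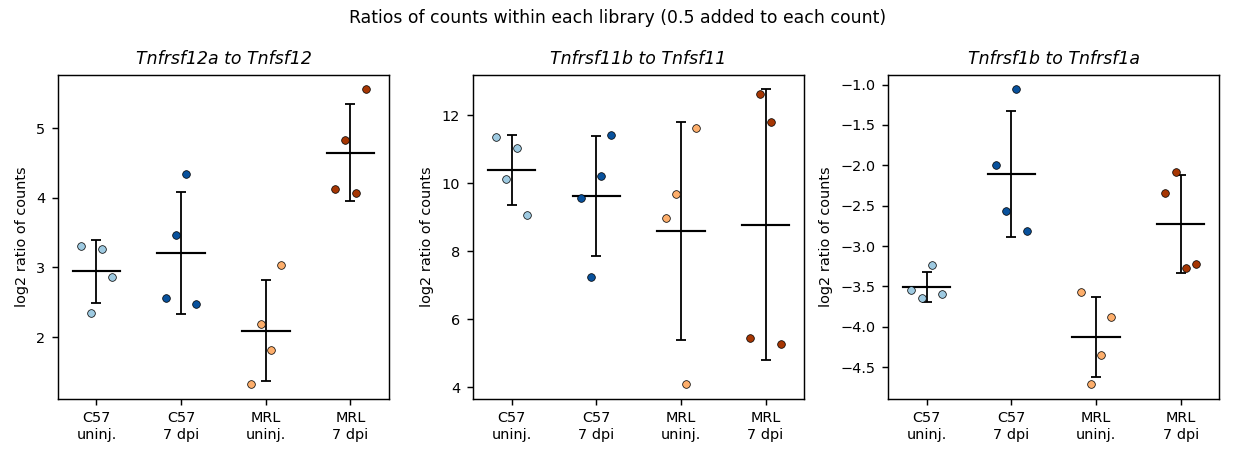
Log2 ratio of raw counts within each library (points, y axis) for 3 gene pairs by group (x axis), with the mean as a line and the SD as a bar, n = 4, and 0.5 added to each count. Tnfrsf12a to Tnfsf12 separates the MRL groups, Tnfrsf1b to Tnfrsf1a separates injured from uninjured libraries within both strains, and Tnfrsf11b to Tnfsf11 overlaps in all groups.

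Tnfrsf11a, the gene of RANK, was higher in every injured library than in every uninjured library of its strain, and it passed the test in neither. It lies on chromosome 1 at 105780718 to 105847981, plus strand. Uninjured C57 replicates 1 to 4 held 6.79, 9.53, 3.63 and 2.63 CPM, and BI-181, BI-183, BI-184, BI-185 held 18.7, 28.5, 56.6 and 26.4 CPM. Uninjured MRL replicates 1 to 4 held 6.64, 9.02, 12.9 and 9.01 CPM, and BI-270, BI-272, BI-274, BI-275 held 24.1, 17.4, 13.5 and 17.3 CPM. The gap was narrow in MRL, where BI-274 lay just above uninjured replicate 3.

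For Tnfrsf11a the log2 difference was 2.48 in C57 (SE 0.497, edgeR adjusted p = 0.0556) and 0.95 in MRL (SE 0.297, edgeR adjusted p = 0.0657). The C57 value was called without C57 uninjured replicate 4, the library rich in epidermal markers, at 2.24 (edgeR adjusted p = 0.0229). It was also called by DESeq2 (adjusted p = 5.12e-05) and in the edgeR fit on all 16 libraries (adjusted p = 0.00608). In MRL, DESeq2 gave 0.95 (adjusted p = 0.0148), past the p threshold and under the fold threshold. The interaction was -1.58 (SE 0.576, edgeR adjusted p = 0.344), and injured MRL against injured C57 gave -0.87 (95% interval -1.62 to -0.11, edgeR adjusted p = 0.179), so a difference between strains was not established.

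Tnfrsf11b, the decoy osteoprotegerin, varied widely within groups. Uninjured C57 replicates 1 to 4 held 88.1, 36.3, 81.3 and 17.5 CPM, and BI-181, BI-183, BI-184, BI-185 held 23.8, 118, 38.7 and 98.8 CPM. Uninjured MRL replicates 1 to 4 held 16.9, 29.7, 30.2 and 127 CPM, and BI-270, BI-272, BI-274, BI-275 held 35.7, 145, 79.4 and 506 CPM. The groups overlapped in both strains, through uninjured replicate 4 in MRL. The log2 difference was 0.27 in C57 (edgeR adjusted p = 0.883) and 1.93 in MRL (SE 0.891, edgeR adjusted p = 0.194).

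Single libraries set the size of the MRL difference in Tnfrsf11b. It was 0.77 without BI-275 (edgeR adjusted p = 0.601) and 2.91 without MRL uninjured replicate 4 (edgeR adjusted p = 0.0621). Between uninjured strains the log2 difference was -0.14 (edgeR adjusted p = 0.967). With replicate 4 of both uninjured groups left out it was -1.43, lower in MRL (edgeR adjusted p = 0.0358).

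Tnfsf11, the ligand RANKL, had no count in 12 of 16 libraries. The 4 libraries with counts were MRL uninjured replicate 3 with 29, BI-183 with 12, BI-270 with 19 and BI-275 with 235. The floor of 3 counts stood at 0.126 to 0.239 CPM, so a library at 0 can still hold this gene below that level. Tnfsf11 did not pass the filter in any comparison of 2 groups, and no fold is given. The ratio of Tnfrsf11b to Tnfsf11 counts ran from 17.2 to 6385 over the libraries with the 0.5 added, and its high values came from libraries with no Tnfsf11 count.

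Markers of cells known to make RANKL were read beside it. The 10 T lymphocyte markers summed to at most 22.9 CPM, in BI-275, of which Il7r, also found on other cells, made 15.3 CPM. Cd2 was at 0 in 2 libraries and reached 7.81 CPM in BI-272, while Cd8a was at 0 in 13 libraries and Zap70 in 15. The 8 osteoblast and bone markers summed to between 16.6 and 235 CPM, led by Ibsp at up to 228 CPM. Runx2 was at 0 in no library and highest in BI-275, at 19.3 CPM. In that same library Bglap, Sp7, Phex and Alpl were at 0, with Bglap2 at 0.167, Dmp1 at 0.111 and Ibsp at 76 CPM. Alpl reached 14.4, Bglap2 13 and Bglap 4.12 CPM in their highest libraries, and Sp7 was at 0 in 13 libraries. Their part in the RANKL counts was not tested.

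**Figure D3:**
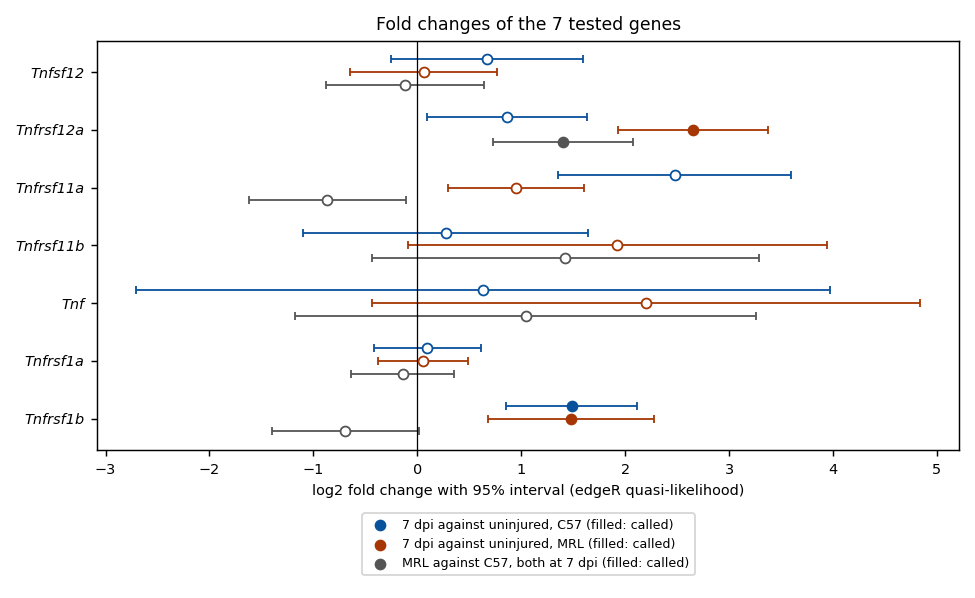
Log2 fold change (x axis) with its 95% interval for the 7 tested genes (y axis) in C57 after injury, in MRL after injury and between the strains at 7 dpi. Filled points passed both criteria: Tnfrsf12a in MRL at 2.65 and between injured strains at 1.40, and Tnfrsf1b at 1.49 in C57 and 1.48 in MRL.

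Across the 8 genes, 7 were tested in each comparison of 2 groups. After injury 1 of 7 was called in C57, against 1.07% of all genes tested, and 2 of 7 in MRL, against 7.41%. Between injured strains 1 of 7 was called, against 3.43% of all genes. All the called values of the injury comparisons were higher after injury. So were 131 of 155 calls over all genes in C57 and 750 of 1057 in MRL. The median log2 difference of the 7 was 0.67 in C57 and 1.48 in MRL, beside -0.05 and -0.03 over all genes tested. Without BI-275 the MRL median was lower, since Tnf fell to 0.70 and Tnfrsf11b to 0.77. With 7 genes, these shares rest on 1 or 2 genes each, and the genes were chosen with earlier results of these data known.

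No member was called between uninjured strains or in the interaction, where the background was also 0% of 14055 and 0% of 15947 genes with edgeR. At an unadjusted p under 0.05 edgeR passed 1106 and 1939 genes in those 2 comparisons, and DESeq2 called 104 and 198. No member was called there by DESeq2.

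The count of genes whose groups did not overlap was read against the same measure over all tested genes. It was 2 of 7 in C57 (Tnfrsf11a and Tnfrsf1b), against 11.7% of all genes, and 3 of 7 in MRL (those and Tnfrsf12a), against 22.9%. It was 1 of 7 between injured strains (Tnfrsf12a), against 16%, and 0 of 7 between uninjured strains, against 5.04%.

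Per kb of exon, the level ranked each receptor's mean above that of its ligand in all 4 groups. Tnfrsf1a was highest in both uninjured groups and in injured C57, at 76.5, 75.2 and 84.4 CPM per kb, and did not overlap the next gene in any of the 3. In injured MRL, Tnfrsf12a stood at 111 CPM per kb (range 69.9 to 175) and Tnfrsf1a at 77.8 (range 71.7 to 89.6), which overlap. Tnfrsf11b, at means of 18.1 to 68.0 CPM per kb, overlapped Tnfrsf12a in every group by this measure.

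Below these, Tnfrsf1b, Tnfsf12 and Tnfrsf11a lay between 0.944 and 13.4 CPM per kb as group means. Tnfrsf1b and Tnfsf12 overlapped in all groups but injured C57, where Tnfrsf1b was higher. Tnf and Tnfsf11 were the lowest 2 in each group, at means of 0.467 to 2.13 and 0 to 1.55 CPM per kb, and they overlapped each other. Lengths were taken as the union of annotated exons. With the longest transcript instead, 3 of these statements for the injured groups change. Tnfrsf12a then ranges from 137 to 344 CPM per kb in injured MRL, above Tnfrsf1a at 86.1 to 108, and in injured C57 the ranges of these receptors, 56.1 to 109 and 75.0 to 134, overlap while Tnfrsf12a lies above Tnfrsf11b at 8.46 to 41.9. In the other 3 groups Tnfrsf12a still overlaps Tnfrsf11b.

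**Figure D4:**
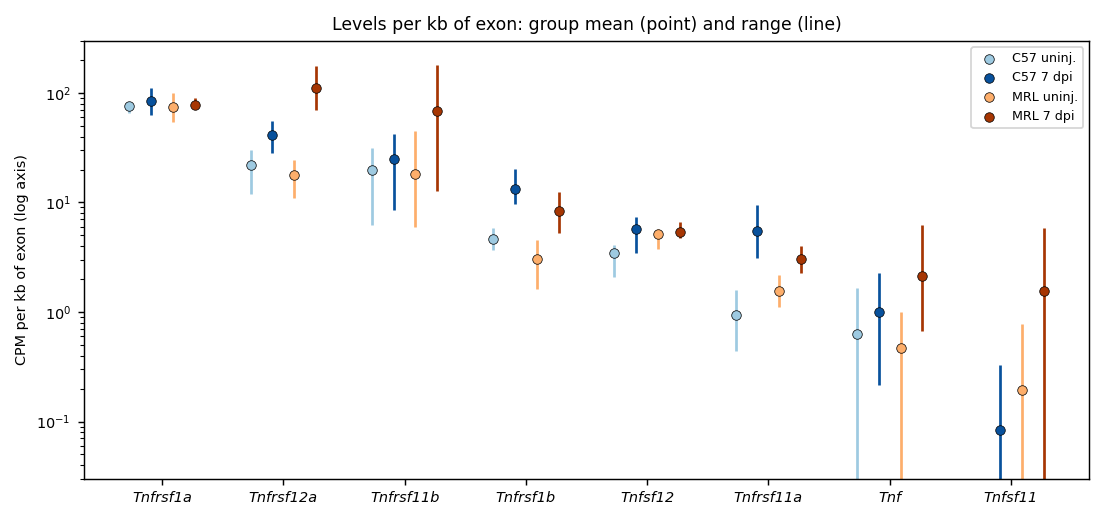
Level per kb of exon (y axis, log scale) of the 8 genes (x axis) in the 4 groups, with the mean as a point and the range over 4 libraries as a line. Lines that reach the bottom include a library at 0, and Tnfsf11 in uninjured C57, at 0 in all 4 libraries, is not drawn. Tnfrsf12a in injured MRL, at a mean of 111 CPM per kb, overlaps Tnfrsf1a by this length.

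Among the members, the highest rank correlations over the 16 libraries were between Tnfrsf11a and Tnfrsf1b (Spearman rho 0.774) and between Tnfrsf12a and Tnfrsf1b (0.735), while Tnfrsf12a and its ligand Tnfsf12 stood at 0.0647. These describe libraries that share groups and differ in depth. Out of 14060 genes with at least 1 CPM on average, those most like Tnfrsf12a were Ccl5, a chemokine, at 0.963, Plaur, the urokinase receptor, at 0.953, and 1700012B09Rik at 0.953. Those most like Tnfrsf11a were Lsp1, a leukocyte actin-binding protein, at 0.971, Renbp at 0.959 and the membrane-type matrix metalloproteinase Mmp14 at 0.956. Those most like Tnfrsf1b were Paqr7, Hmga1 and Irf5, an interferon regulatory factor of myeloid cells, at 0.953, 0.941 and 0.921.

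Tnfrsf11b was most like Spp1, the gene of osteopontin, at 0.915, then Xylt1 at 0.856 and Nt5e at 0.838. The likeness was weaker for the rest. Tnfsf12 led with C1s1 at 0.844, Casp12 at 0.838 and Celf2 at 0.812, and Tnfrsf1a with F420014N23Rik at 0.774, Urb1 at 0.768 and Fgf10 at 0.758. F420014N23Rik and Fgf10 were low, with group means of at most 1.90 and 1.76 CPM. All these genes are picks of the highest rho out of 14060 genes, and no test was made of such picks. For Tnf, led by Pex3 at 0.793, 1600010M07Rik at 0.790 and Mkl1 at 0.783, and for Tnfsf11, led by Mre11a at 0.817, Tmem251 at 0.802 and Gm42575 at 0.789, the ranks rest on few counts.

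The other genes of the pathway were taken from 7 lists. In the edgeR injury comparisons with all 8 libraries, each call among them was an increase after injury. So were 131 of the 155 calls over all genes in C57 and 750 of 1057 in MRL. Between injured strains the calls were 1 of 17 other receptors, 1 of 19 NF-kB response genes and 2 of 13 osteoclast genes. All were lower in MRL. Over all genes that share was 3.43%, and 275 of the 502 calls were lower. List counts after injury stand beside the 1.07% of all genes called in C57 and the 7.41% called in MRL. With few genes a list, counts such as 1 of 20 or 2 of 16 in MRL lie near that share. Of the other TNF superfamily ligands, 0 of 6 tested were called in C57 and 0 of 5 in MRL, with median log2 differences of 1.45 and -0.11. Of the other receptors, 0 of 15 were called in C57 and 2 of 16 in MRL, with medians of 0.56 and 0.48. The called receptors were Tnfrsf23, a decoy receptor for TRAIL, and Relt. Among those not called, Tnfrsf13b, a receptor of B lymphocytes singled out after its values were seen, went from 1.51 to 20.8 CPM in C57 (edgeR adjusted p = 0.104) and from 2.29 to 11.5 CPM in MRL (edgeR adjusted p = 0.107), with no overlap in either strain. Tnfrsf25, singled out in the same way, lay the other way in MRL, with 11 to 28 counts before and 0 to 5 after injury (edgeR adjusted p = 0.0586), and it passed the filter only through the uninjured libraries.

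Tnfrsf23 went from 15.8 to 39.7 CPM in MRL (log2 fold change 1.34, edgeR adjusted p = 0.0187), with reads that its close paralogs Tnfrsf22 and Tnfrsf26 could share. Relt had no count in uninjured MRL and 23 to 241 counts in injured MRL, a mean of 5.19 CPM that is at least 24.8-fold higher than the floor of 3 counts per library. In C57, Relt had 0 to 13 counts before and 21 to 223 after injury, with no overlap, and was not called (edgeR adjusted p = 0.215).

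Next to the receptors, 1 of 20 adaptor and death-complex genes was called in each strain, with medians of 0.02 in C57 and -0.05 in MRL. It was Casp8 in both, the caspase that death receptors activate. Casp8 went from 25.8 ± 1.96 to 67.5 ± 16.5 CPM in C57 (log2 fold change 1.34, edgeR adjusted p = 0.0248) and from 28.5 ± 6.55 to 64.2 ± 7.90 CPM in MRL (1.18, edgeR adjusted p = 0.00605). Ripk1, Fadd and Tradd were among the 19 not called. So was Traf1, singled out after its values were seen: it went from 2.30 to 14.9 CPM in C57 (edgeR adjusted p = 0.248) and from 1.77 to 13.8 CPM in MRL (edgeR adjusted p = 0.0779), with no overlap in either strain. Traf6, singled out in the same way, lay the other way in MRL, at 25.4 CPM before and 12.2 CPM after injury with no overlap (edgeR adjusted p = 0.061). In C57 it stood at 44.0 and 24.02 CPM, and the groups overlapped (edgeR adjusted p = 0.427).

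Of 12 genes for NF-kB subunits, inhibitors and kinases, 0 were called in C57 and 2 in MRL, with medians of 0.14 and 0.17. Nfkb2, the p100 subunit of the alternative pathway, went from 21.4 to 45.6 CPM in MRL (log2 fold change 1.09, edgeR adjusted p = 0.0203). Nfkbie, an inhibitor of NF-kB, went from 8.98 to 27.0 CPM (1.59, edgeR adjusted p = 0.0344). In C57 their log2 differences were 0.78 and 1.90 (edgeR adjusted p = 0.433 and 0.384), with no overlap for Nfkbie. Others not called were singled out after their values were seen. Rela was lower after injury in MRL with no overlap, at a log2 difference of -0.56. In C57, Nfkbia was lower, from 265 to 165 CPM, and Bcl3 higher, from 7.74 to 20 CPM. Neither overlapped (edgeR adjusted p = 0.141 and 0.282).

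NF-kB response genes were called in 2 of 16 in C57 and 5 of 18 in MRL, with medians of 0.37 and 1.45. Vcam1, an adhesion molecule, was called in both strains, at log2 fold changes of 3.14 in C57 (edgeR adjusted p = 0.0216) and 3.04 in MRL (edgeR adjusted p = 0.019). Its groups did not overlap in C57 but did in MRL, where BI-274, at 4.63 CPM, lay below uninjured replicate 2, at 5.70 CPM. The monocyte chemokines Ccl2 and Ccl7 went from 4.48 to 288 and from 3.69 to 180 CPM in MRL (log2 fold changes 6.03 and 5.65, edgeR adjusted p = 0.00119 and 0.00284). In C57, Ccl2 and Ccl7 were also higher in every injured library than in every uninjured one, at means of 137 and 85.0 CPM against 7.34 and 4.73, and did not pass (edgeR adjusted p = 0.149 and 0.147). Csf2, the growth factor GM-CSF, had 0 to 3 counts in uninjured MRL and 75 to 305 in injured MRL (edgeR adjusted p = 0.00494). In C57 it had 0 to 2 counts before and 10 to 64 after injury, with no overlap, and did not pass the filter for testing. In MRL, Csf2, Il1b, Dcstamp and Relt passed the filter only through the injured libraries, so they had to be higher there to be tested. Their calls are no support for their lists, and they enter the MRL medians of those lists. Macrophage markers separated injured from uninjured libraries in both strains, as given above. Summed T lymphocyte markers did so in MRL and summed endothelial markers in C57. Their part in the NF-kB response genes was not tested.

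Of the osteoclast genes, 1 of 12 was called in C57 and 5 of 12 in MRL, with medians of 0.70 and 1.46. The list mixes genes that RANK induces with Tyrobp, Trem2 and Csf1r, which are known to act beside it. Nfatc1 and Fos, transcription factors that RANK signalling is known to use, were singled out after their values were seen and were not called, at log2 differences of -0.55 and -1.54 in C57 (edgeR adjusted p = 0.386 and 0.509) and 0.23 and -2.92 in MRL (edgeR adjusted p = 0.37 and 0.106). Tyrobp, a signalling adaptor of osteoclasts and other myeloid cells, was called in both strains, at log2 fold changes of 2.01 in C57 (edgeR adjusted p = 0.0152) and 2.58 in MRL (edgeR adjusted p = 0.00184). Its partner Trem2 rose by 2.06 in MRL (edgeR adjusted p = 0.00434) and stood at 2.18 in C57 (edgeR adjusted p = 0.0807). Ctsk, the collagen-degrading cathepsin K of osteoclasts that fibroblasts also make, went from 187 ± 19.8 to 478 ± 66.8 CPM in MRL (log2 fold change 1.36, edgeR adjusted p = 0.0013). In C57 it stood at 152 ± 60.8 before and 456 ± 170 CPM after injury, with no overlap and a log2 difference of 1.53 that did not pass (edgeR adjusted p = 0.127). Dcstamp, a cell fusion gene, had 0 to 5 counts in uninjured MRL and 22 to 354 in injured MRL (edgeR adjusted p = 0.0183). Macrophage markers moved with this list too, as given above, and 1 gene, Csf1r, is on both lists.

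Of 7 genes for shedding and scavenging, such as the TNF-cleaving protease Adam17 and its inhibitor Timp3, 0 were called in either strain, with medians of -0.06 in C57 and 0.31 in MRL. No gene of the 7 lists was called in the interaction with edgeR, so the larger number of calls in MRL is not a tested difference between strains. In the fit on all 16 libraries 4 NF-kB response and 4 osteoclast genes were called in C57 and 4 and 3 in MRL, and no NF-kB subunit, inhibitor or kinase was called in either strain. In that fit 1 of the other receptors was called in MRL and 0 in C57.

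The list counts depended on single libraries and on the tool. The list medians given above are those of the main fits only, and how they moved under the alternatives is not given here. DESeq2 called 2 receptors, 2 adaptors, 7 NF-kB response genes, 5 osteoclast genes and 1 shedding gene in C57. In MRL it called 4 receptors, 3 adaptors, 9 NF-kB response genes, 7 osteoclast genes, 1 shedding gene and 3 NF-kB subunits, inhibitors and kinases, and 1 of these receptors and 1 of these adaptors were lower after injury. In C57 every list count fell to 0 without uninjured replicate 1, 2 or 3, BI-183, BI-184 or BI-185, so the C57 calls of Casp8, Vcam1 and Tyrobp were lost there. Without C57 uninjured replicate 4 they became 1 for the receptors, 2 for the adaptors, 5 for the NF-kB response genes, 4 for the osteoclast genes and 1 for shedding and scavenging. In MRL the 2 calls among NF-kB subunits, inhibitors and kinases fell to 0 without uninjured replicate 2, BI-270 or BI-272 and in the fit on all 16 libraries, and to 1 without uninjured replicate 1 or 4 or BI-274.

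Other MRL counts moved as well. The NF-kB response genes fell from 5 to 3 without BI-272. The osteoclast genes fell from 5 to 3 without uninjured replicate 2 or 3, without BI-275 and in the fit on all 16 libraries. The receptors fell from 2 to 1 without uninjured replicate 1 or 3 and in the fit on all 16 libraries, and the adaptor calls went from 1 to 2 without BI-275, the added gene being lower after injury.

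**Figure D5:**
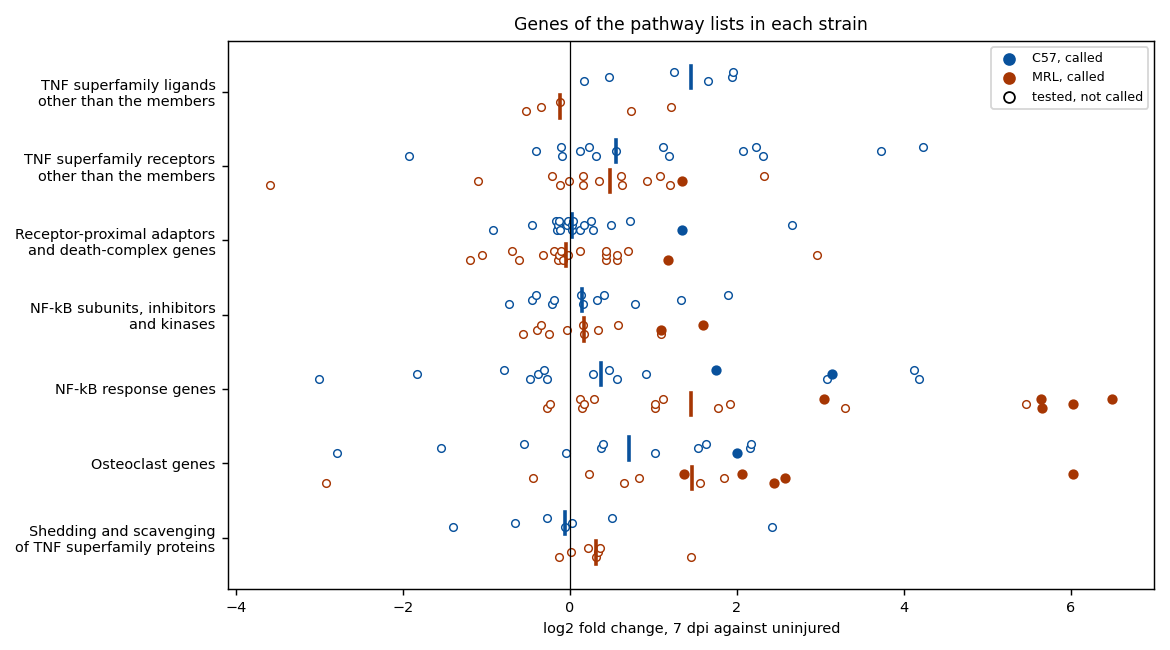
Log2 fold change at 7 dpi (x axis) of the tested genes of 7 pathway lists (y axis) in C57 and MRL, filled where called, with the median of each list as a vertical bar. Genes with no count in 1 of the groups, such as Relt in MRL, are not drawn but enter the medians. The called genes drawn all lie to the right of 0. Over all genes, 131 of 155 calls in C57 and 750 of 1057 in MRL were increases. In MRL 5 of 18 NF-kB response genes and 5 of 12 osteoclast genes were called. Of these, Il1b, Csf2 and Dcstamp passed the filter only through the injured libraries.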

How the data were processed

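RNA-seq counts of 16 mouse flexor tendon libraries were analysed, in 4 groups of 4 taken from the labels. Per the submitters' processing notes and the methods, the authors trimmed reads with Trimmomatic 0.36, mapped them with STAR 2.5.2b to GRCm38.p5 and listed Subread 1.5.0p3 (featureCounts) and DESeq2 1.14.1. Which gene annotation and strand option the counting used is not given in the sources used here. The authors deposited raw counts for 49568 gene symbols, not normalized. The labels name 100 ng of RNA input, and the methods pre-amplification of 1 ng with no molecular identifiers, so counting error can understate the technical error.

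Counts were filtered with filterByExpr, scaled by TMM and tested with edgeR 4.0.16 in R 4.3.3 (glmQLFit with robust estimation and glmQLFTest, Benjamini-Hochberg over all genes tested), in each comparison's own 8 libraries and, for the interaction, in all 16. The procedure was tested on simulated data. Nothing says that libraries share an animal, and p-values measure the spread between these tendons. The alternatives were DESeq2 1.42.0, DESeq2 size factors, upper-quartile factors, no filter, counts thinned to the lowest total, a fit on all 16 libraries, a replicate block, and each library left out. Intervals are at the 95% level, and floors of 3 counts cover counting error only. Gene positions and exon lengths are from GENCODE on GRCm38, and promoters from RefSeq on GRCm38.p6.

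The 8 genes, the 7 lists and the marker lists were chosen with earlier results of these data known. All 8 were named, with at most 4 called genes per list, by smallest adjusted p over both strains, and the 3 genes of highest Spearman rho for each of the 8.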

Additional observations from a re-analysis of the deposited data

Results flagged for a closer look

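A library apart from the other 3 of its group by Dixon's criterion was found in 7 of 32 combinations of gene and group, where chance flags about 1 in 20. That rate does not hold for 2 of the 7, where the other 3 libraries were all at 0. For Tnfsf12 the low libraries were C57 uninjured replicate 4 at 3.16 CPM, next to 5.72, and MRL uninjured replicate 4 at 5.71 CPM, next to 8.44. For Tnfrsf11b it was MRL uninjured replicate 4 at 127 CPM, next to 30.2. For Tnfsf11 the high libraries were MRL uninjured replicate 3 at 1.73 CPM and BI-183 at 0.741 CPM, each the only library of its group above 0 and so apart at any count, and BI-275 at 13.1 CPM, next to 0.799. For Tnf it was BI-275 at 10.3 CPM, next to 1.41.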

How the results depend on the processing

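Of 560 member values recomputed under an alternative, 507 kept their direction and side of the threshold, 17 lost and 6 gained a call, and 30 changed sign, none of them called in the results above. The call of Tnfrsf12a in MRL held in all 14 alternatives. In C57, the members called went from 1 to 2 with DESeq2, DESeq2 size factors, no filter and the fit on all 16 libraries, and to 0 with upper-quartile factors. Leaving out 1 library gave 0 to 2 in C57 (2 without C57 uninjured replicate 4, 0 without any other), 1 to 2 in MRL, 0 to 1 between injured strains, and 0 in the interaction and between uninjured strains, where leaving out both replicates 4 gave 1 (Tnfrsf11b).

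Genes called over the table in C57 went from 155 to 907 with DESeq2, 367 in the fit on all 16 libraries and 10 to 750 with 1 library left out. In MRL they went from 1057 to 1819 with DESeq2 and 689 to 1260 with 1 left out. Between injured strains they went from 502 to 1490 with DESeq2, 227 on all 16 libraries and 231 to 481 with 1 left out. From 0, DESeq2 gave 198 in the interaction and 104 between uninjured strains, where no filter gave 1, leaving out both replicates 4 gave 497 and leaving out 1 library 0 to 3. The cause of these shifts was not tested.

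Log2 differences that changed sign had these ranges with 1 library left out. After injury in C57 they were -0.062 to 0.60 for Tnfrsf11b, -0.093 to 1.73 for Tnf and -0.034 to 0.25 for Tnfrsf1a, and in MRL -0.083 to 0.12 for Tnfsf12 and -0.071 to 0.23 for Tnfrsf1a. In the interaction they were -0.22 to 0.073 for Tnfrsf1a and -0.31 to 0.22 for Tnfrsf1b. Between uninjured strains they were -1.13 to 0.17 for Tnfrsf11b, -1.14 to 0.67 for Tnf and -0.20 to 0.098 for Tnfrsf1a, and between injured strains -0.30 to 0.044 for Tnfsf12, -0.38 to 1.80 for Tnf (negative without BI-275) and -0.27 to 0.022 for Tnfrsf1a. Without both replicates 4, the interaction was 0.14 for Tnfrsf1a and 0.31 for Tnfrsf1b. Uninjured replicate numbers did not pair the strains (correlations of deviations -0.262 to 0.0155, no library closest to its own number), and with a replicate block Tnf between uninjured strains was 0.37 and 0 members were called. List counts under the same alternatives were added after seeing the data. Tnf and Tnfsf11 rest on few counts that varied widely between libraries of 1 group.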
